A study of Mus musculus with 36 samples.

Results

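The prostanoid and leukotriene pathway was followed here through 10 genes of a mouse carotid artery RNA-seq series, taken from the count table by their symbols: Ptgs1, Ptgs2, Ptges, Ptgis, Ptgds, Tbxas1, Ptgir, Ptger4, Alox5 and Alox5ap. They were 10 of 49568 symbols in the table, and all 10 passed the filter on low counts that left 18628 genes for testing. The left carotid artery was ligated in every mouse, whole arteries were collected 14 days later, and poly(A) RNA was sequenced. There were 12 groups of 3 libraries: 129X1/SvJ mice (129X1) and C57BL/6 mice (B6, C57BL/6J in the protocol), each given 1 of 2 drugs or vehicle (at 2 mL/kg/day). The drugs were the combination of sacubitril, a neprilysin inhibitor, with valsartan, an angiotensin receptor blocker (Sac/val, at 60 mg/kg/day), and valsartan alone (Val, at 27 mg/kg/day). Each treatment was given as a therapeutic regimen, which began 7 days after ligation and ran for 7 days, or as a prophylactic regimen, which began 2 days before ligation and ran for 16 days. The ages of the mice are not given in the sources used here, and no unligated artery was analysed here, so every value below belongs to an injured vessel.

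Prostanoids and leukotrienes are lipid mediators made from arachidonic acid. Cyclooxygenases convert it to prostaglandin H2, which terminal synthases turn into prostaglandin E2, prostaglandin D2, prostacyclin or thromboxane. 5-lipoxygenase, working with its activating protein, opens the branch that leads to leukotrienes. In arteries, prostacyclin from the vessel wall relaxes smooth muscle and restrains platelets, thromboxane does the opposite, and leukotrienes are made mainly by myeloid cells.

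Library totals ran between 18.96 M and 28.97 M counts (median 22.78 M). Myh11, the contractile smooth muscle myosin, was present in each library (40.5 to 673 CPM; CPM, counts scaled to a common library total, is the unit of all levels below). The libraries also held varying amounts of neighbouring tissue. Rag1, which marks thymocytes, reached 10 CPM or more in 12 of 18 129X1 libraries and 4 of 18 B6 libraries. Tg, the thyroid gland's main product, reached 10 CPM or more in 6 129X1 libraries and 5 B6 libraries.

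Compared per kilobase of exon, the genes spanned a wide range of levels over all 36 libraries. The length used was that of all annotated exons of a gene merged, so ranks and ratios between genes depend on the annotation. Alox5ap had the highest median, 37.8 CPM per kb, followed by Ptgis at 26.5 CPM per kb. Ptges (6.89 CPM per kb) and Ptgs1 (5.65 CPM per kb) came next, ahead of Ptgir (3.70), Tbxas1 (2.48) and Ptger4 (1.92) on the same scale. Alox5, Ptgs2 and Ptgds lay close together at 1.69, 1.64 and 1.62 CPM per kb, and scaling to TPM exchanged the ranks of Ptgs2 and Ptgds. Levels in single libraries overlapped between neighbours in this order. Ptgs2 held a different place in each strain, the lowest of the 10 by median in 129X1 (0.92 CPM per kb) and the sixth in B6 (4.03 CPM per kb; rank 6).

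Strain was the condition that separated these genes. Over all treatments and regimens, 7 of the 10 were lower in 129X1 arteries than in B6 arteries by edgeR's quasi-likelihood test with Benjamini-Hochberg adjustment over all 18628 genes (adjusted p below 0.05), and none was higher. The background was high, since 33.8% of all genes tested passed in either direction and 17.5% were lower in 129X1. The median log2 difference of the 10 genes was -0.63, beside -0.02 over all genes. The 10 genes were chosen with earlier results of these data known, so their number and median are no test of the pathway. For 32 other pathway genes tested, 5 were lower and 6 higher in 129X1, with a median of -0.09. Among the 10, Ptgs2 differed most, followed by Ptgir, Ptgis, Alox5ap, Tbxas1, Alox5 and Ptgs1, while Ptger4, Ptgds and Ptges did not pass. The plot of all 10 genes by strain shows that libraries of the 2 strains overlapped for each gene over all treatments.

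**Figure D1:**
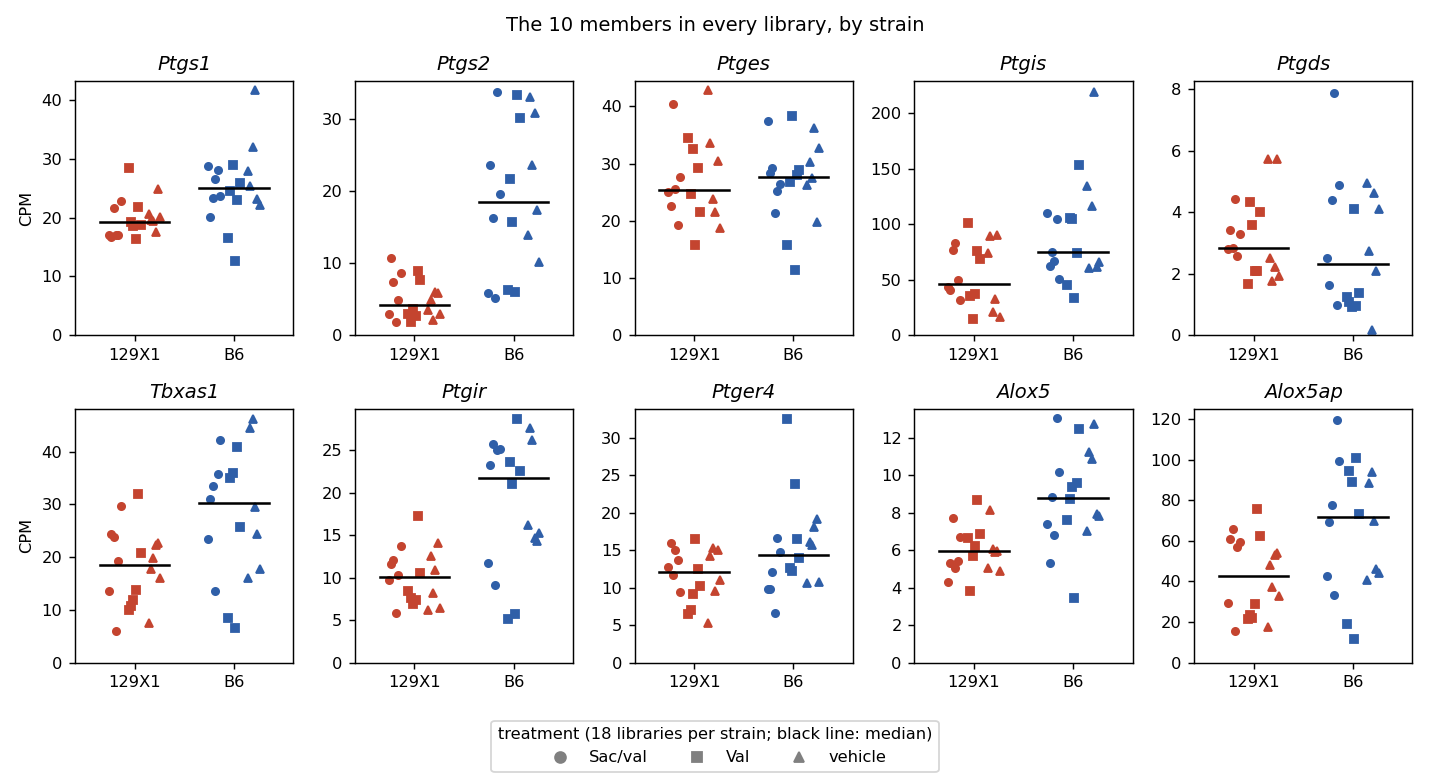
CPM (linear axis from 0) of the 10 genes in 18 libraries of 129X1 (left, red) and 18 of B6 (right, blue), with the treatment shown by the symbol and the median by a black line. The 129X1 median of Ptgs2 (4.21 CPM) lay below the lowest B6 library (5.09 CPM), whereas the medians of Ptges were 25.3 CPM in 129X1 and 27.8 CPM in B6.

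Ptgs2 encodes the inducible cyclooxygenase, COX-2 (GRCm38 chr1:150100031-150108227, plus strand). In 129X1 arteries it had 1.86, 4.92 and 8.65 CPM under therapeutic Sac/val, 2.99, 10.7 and 7.35 under prophylactic Sac/val, 2.58, 8.95 and 7.67 under therapeutic Val, 2.94, 1.88 and 3.59 under prophylactic Val, 5.99, 5.87 and 2.95 under therapeutic vehicle, and 3.55, 4.84 and 2.13 under prophylactic vehicle. In B6 arteries it had 5.09, 33.7 and 19.6 CPM under therapeutic Sac/val, 5.91, 23.6 and 16.3 under prophylactic Sac/val, 6.04, 33.4 and 30.1 under therapeutic Val, 6.33, 21.7 and 15.8 under prophylactic Val, 30.8, 17.3 and 10.1 under therapeutic vehicle, and 13.8, 33.0 and 23.6 under prophylactic vehicle. All 18 129X1 libraries lay below the B6 median of 18.4 CPM, and 11 of them lay below every B6 library. The lowest 4 B6 libraries, 5.09 to 6.33 CPM, were replicate 1 of each drug and regimen. The summed level of 8 macrophage genes in them was 220 and 372 CPM under Val and 543 and 806.5 CPM under Sac/val. The B6 median of that sum was 1139 CPM. The 2 under Val also held 870 and 1591 CPM of Rag1. Why these libraries were low in Ptgs2 was not tested. The vehicle libraries of the 2 strains did not overlap. Ptgs2 was 0.250 times as high in 129X1 as in B6 (log2 difference -2.00, SE 0.29, adjusted p = 7.31e-06), and over the fits that left out 1 library the difference stayed between -2.10 and -1.89 with the call kept.

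**Figure D2:**
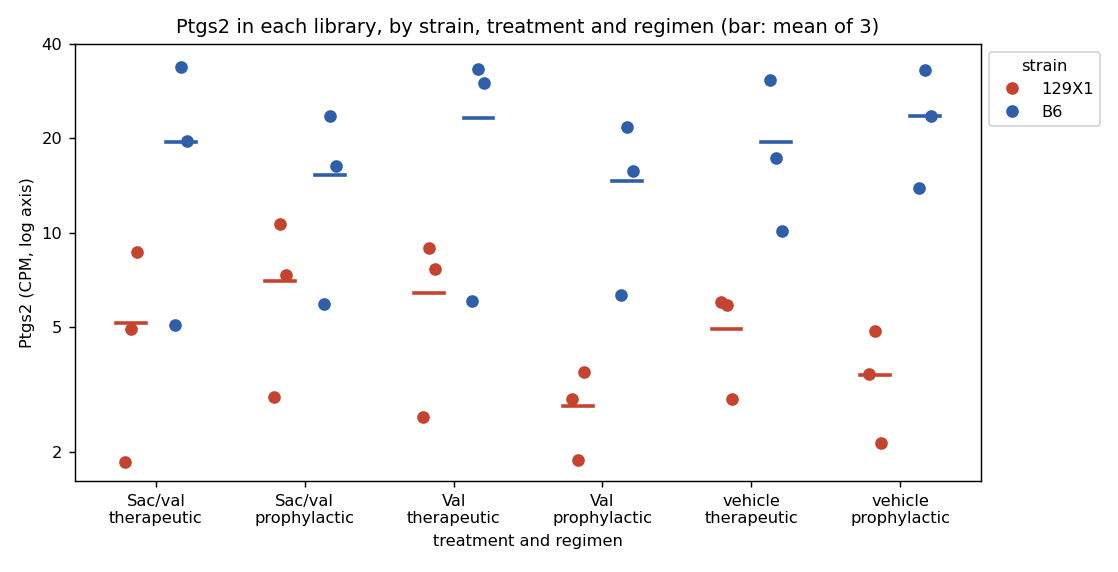
Ptgs2 in CPM (log axis) in each of 36 libraries, with 129X1 (red) left of B6 (blue) within each treatment and regimen and bars at the mean of 3. Each 129X1 mean (2.80 to 7.01 CPM) lies below each B6 mean (14.6 to 23.5 CPM), and in the 4 drug groups of B6 1 library sits near the 129X1 values. These 4 libraries also lay below the B6 median of the macrophage markers.

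Ptgs1 encodes COX-1, the cyclooxygenase that most tissues make without induction (chr2:36230426-36252272, plus strand). It ran between 16.4 and 28.4 CPM in 129X1 (median 19.3) and between 12.6 and 41.8 CPM in B6 (median 24.96). The ranges overlapped widely, yet 17 of 18 129X1 libraries lay below the B6 median, and the log2 difference of -0.34 (SE 0.10) passed (adjusted p = 0.0123). Set against each other per kilobase, Ptgs2 was 0.18 times the level of Ptgs1 in the median 129X1 library (range 0.083 to 0.54) and 0.62 times in the median B6 library (range 0.16 to 1.23). Ptgs2 exceeded Ptgs1 in no 129X1 library and in 3 of 18 B6 libraries.

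Promoters are shown for Ptgs2, for 3 of the other genes that were lower in 129X1 (Ptgir, Alox5 and Tbxas1) and for Ptges, which did not pass. Each is the 250 bases before the start in RefSeq (GRCm38.p6, the C57BL/6J reference sequence). Whether promoter sequence bears on any strain difference was not tested. A table of promoters held 8 of the 10 genes, and those of Ptgs1, Ptger4 and Ptgds are not shown. That of Ptgs1, which was also lower in 129X1, held GAGGAAGT 24 to 17 bases before the start, as did 2.44% of all promoters. Both strands were searched for the TATA box TATAAA, the E-box CACGTG, the cAMP response element TGACGTCA and its shorter form CGTCA, which overlaps it, the GC box GGGCGG, the C/EBP palindrome TTGCGCAA, the ETS element GAGGAAGT, the NF-kB consensus and the CCAAT box, and capitals mark each match. They lie at chr1:150099781-150100030 (plus strand) for Ptgs2, chr7:16906240-16906489 (plus strand) for Ptgir, chr6:116461179-116461428 (minus strand) for Alox5, chr6:38918736-38918985 (plus strand) for Tbxas1 and chr2:30903298-30903547 (minus strand) for Ptges. The RefSeq starts of Tbxas1 and Ptges lie 43.6 and 26.6 kb inside the GENCODE genes, which extend further upstream, and the other 3 coincide with the GENCODE start.
Ptgs2: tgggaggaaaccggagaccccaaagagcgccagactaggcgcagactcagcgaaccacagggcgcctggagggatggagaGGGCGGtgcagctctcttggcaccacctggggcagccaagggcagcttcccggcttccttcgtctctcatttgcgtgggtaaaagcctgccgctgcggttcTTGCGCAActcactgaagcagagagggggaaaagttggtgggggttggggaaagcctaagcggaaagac
Ptgir: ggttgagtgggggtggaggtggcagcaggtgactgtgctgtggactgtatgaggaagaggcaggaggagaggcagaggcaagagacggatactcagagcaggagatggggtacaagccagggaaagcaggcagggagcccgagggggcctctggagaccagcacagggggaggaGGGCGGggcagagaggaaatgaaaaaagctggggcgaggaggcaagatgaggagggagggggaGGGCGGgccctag
Alox5: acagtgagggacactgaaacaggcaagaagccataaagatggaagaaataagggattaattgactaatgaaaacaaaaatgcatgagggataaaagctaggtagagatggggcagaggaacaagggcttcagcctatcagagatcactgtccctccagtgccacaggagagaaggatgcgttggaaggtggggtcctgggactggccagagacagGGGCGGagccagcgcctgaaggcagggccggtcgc
Tbxas1: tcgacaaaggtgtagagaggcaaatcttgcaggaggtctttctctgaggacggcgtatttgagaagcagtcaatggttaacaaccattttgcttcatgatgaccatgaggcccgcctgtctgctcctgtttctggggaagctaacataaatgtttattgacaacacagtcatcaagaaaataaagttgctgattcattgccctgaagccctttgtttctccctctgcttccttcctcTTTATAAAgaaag
Ptges: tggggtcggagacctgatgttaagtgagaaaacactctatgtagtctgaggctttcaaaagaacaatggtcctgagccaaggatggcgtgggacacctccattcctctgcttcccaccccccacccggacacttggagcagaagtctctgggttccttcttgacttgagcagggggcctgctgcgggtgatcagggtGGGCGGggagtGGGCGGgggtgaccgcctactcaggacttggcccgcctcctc

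Of these promoters only that of Ptgs2 held TTGCGCAA, the palindrome that C/EBP factors can bind, at 69 to 62 bases before the start. That motif was in 0.164% of 32851 promoters of the same length. GGGCGG, the GC box that Sp1 can bind, was in those of Ptgs2, Ptgir, Alox5 and Ptges alike, and in 32.7% of all promoters. Tbxas1 held TATAAA, on both strands of an overlapping stretch 13 to 6 bases before the start, as did 12.4% of all promoters. The matches are letters in the reference sequence, and the sequence of 129X1 was not examined.

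Among the terminal synthases, those of prostacyclin and thromboxane were both lower in 129X1, and those of prostaglandins E2 and D2 did not pass. Ptgis, prostacyclin synthase (chr2:167191805-167240604, minus strand), ran between 14.6 and 101 CPM in 129X1 (median 46.3) and between 33.1 and 219 CPM in B6 (median 74.5). The strain medians lay apart, but 13 of 18 129X1 libraries fell within the B6 range. Its log2 difference was -0.74 (SE 0.28, adjusted p = 0.0417), the call closest to the threshold. It was lost in 18 of the 36 fits that left out 1 library (adjusted p up to 0.0946, without B6 vehicle therapeutic replicate 1, with a log2 difference of -0.59), and with no filter on low counts (adjusted p = 0.0558).

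Tbxas1, thromboxane synthase (chr6:38875404-39084585, plus strand), had a range of 6.00 to 31.9 CPM in 129X1 (median 18.6) and of 6.61 to 46.1 CPM in B6 (median 30.3). A lone 129X1 library lay below all of B6, and 8 B6 libraries lay above all of 129X1. The log2 difference was -0.69 (SE 0.24, adjusted p = 0.0265), and without B6 Val therapeutic replicate 2 it was -0.59 with the call lost (adjusted p = 0.0579). Per kilobase of merged exons, Tbxas1 stood at 0.097 times Ptgis in the median 129X1 library (range 0.020 to 0.277). In the median B6 library it stood at 0.095 times (range 0.034 to 0.234). The merged lengths were 9.09 kb for Tbxas1 and 2.57 kb for Ptgis. Which transcripts were present was not examined, so the size of this ratio is uncertain. Under vehicle alone the medians were 0.134 in 129X1 and 0.094 in B6.

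Ptges encodes the inducible microsomal prostaglandin E synthase, mPGES-1 (chr2:30889471-30929863, minus strand). It ran between 15.7 and 42.9 CPM in 129X1 and between 11.4 and 38.3 CPM in B6, with a log2 difference of -0.01 (95% interval -0.29 to 0.27, adjusted p = 0.973). The interval of Ptges did not reach the size seen for Ptgs2. Per kilobase, Ptges was 7.22 times Ptgs2 in the median 129X1 library (range 2.46 to 16.0) and 1.505 times in the median B6 library (range 0.87 to 7.40). Ptgds, lipocalin-type prostaglandin D synthase (chr2:25466709-25470046, minus strand), was low, at 1.66 to 5.73 CPM in 129X1 and 0.16 to 7.87 CPM in B6. Its log2 difference of 0.30 had a wide interval (-0.33 to 0.92, adjusted p = 0.49).

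Of the receptors, Ptgir was lower in 129X1 and Ptger4 did not pass over all treatments. Ptgir encodes IP, the prostacyclin receptor (chr7:16906490-16910905, plus strand). It ran between 5.83 and 17.2 CPM in 129X1 (median 10.0) and between 5.20 and 28.7 CPM in B6 (median 21.8). Its lowest 4 B6 libraries were those lowest in Ptgs2, at 5.20 and 5.70 CPM under Val and 9.17 and 11.7 CPM under Sac/val. The log2 difference of Ptgir was -0.92 (SE 0.21, adjusted p = 0.00117).

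Ptger4 encodes EP4, a prostaglandin E2 receptor (chr15:5206661-5244187, minus strand). It ran between 5.27 and 16.5 CPM in 129X1 (median 12.1) and between 6.63 and 32.5 CPM in B6 (median 14.4), with a log2 difference of -0.36 (SE 0.16, adjusted p = 0.0757). The 2 highest libraries, B6 Val prophylactic replicate 1 (32.5 CPM) and B6 Val therapeutic replicate 1 (23.8 CPM), were also the 2 richest in Rag1 (1591 and 870 CPM). With the 16 libraries of 10 CPM or more of Rag1 left out, the Ptger4 difference was -0.57, with 6 129X1 and 14 B6 libraries. Ptger4 shares 1097 exon bases with Ttc33 and Gm15937 on the other strand, and whether reads were counted by strand is not given in the sources used here, so its values are uncertain. Ptgis, Alox5ap, Ptgs1 and Tbxas1 share 144 to 189 exon bases with genes on the other strand, none of which had over 1210 counts in all 36 libraries.

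In the leukotriene branch both genes were lower in 129X1. Alox5 encodes 5-lipoxygenase (chr6:116410077-116461178, minus strand). It ran between 3.80 and 8.65 CPM in 129X1 (median 5.93) and between 3.47 and 13.1 CPM in B6 (median 8.77). The log2 difference of Alox5 was -0.56 (SE 0.14, adjusted p = 0.00255). Alox5ap encodes FLAP, the 5-lipoxygenase activating protein (chr5:149264767-149288153, plus strand). It ran between 15.9 and 75.8 CPM in 129X1 (median 42.7) and between 11.8 and 120 CPM in B6 (median 71.6), with a log2 difference of -0.71 (SE 0.25, adjusted p = 0.0315). The Alox5ap call was lost in 10 of the 36 fits without 1 library (adjusted p up to 0.0643, without B6 Val therapeutic replicate 2, with a log2 difference of -0.62). Per kilobase, Alox5ap was 19.7 times Alox5 in the median 129X1 library and 19.9 times in the median B6 library.

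Markers of several cell types moved with strain, those of macrophages among them. The background for the counts below was 17.5% of all genes lower in 129X1 and 16.3% higher. Of 8 macrophage genes 7 were lower in 129X1, and their summed level was 280 to 823 CPM in 129X1 (median 533) and 220 to 1534 CPM in B6 (median 1139). Of 7 neutrophil genes tested 6 were lower (8.07 to 191 CPM in 129X1, median 98.9, and 25.3 to 462 CPM in B6, median 181). Of 5 platelet genes 3 were lower and 1 was higher (17.7 to 49.1 CPM in 129X1, median 30.2, and 16.1 to 113 CPM in B6, median 72.9). Of 6 cartilage genes 5 were lower (12.5 to 67.7 CPM in 129X1, median 40.9, and 40.7 to 335 CPM in B6, median 120), as were 5 of 6 Schwann cell genes (710 to 1929 CPM in 129X1, median 1071, and 566 to 2593 CPM in B6, median 1807). Of 6 fibroblast genes 1 was lower, and their summed level was 5344 to 36360 CPM in 129X1 (median 14500) and 2461 to 47960 CPM in B6 (median 29450). Of 6 B cell genes 5 were higher (1.25 to 264 CPM in 129X1, median 7.04, and 2.34 to 22.2 CPM in B6, median 4.14). The T cell and thymocyte list had 1 of 8 genes higher (1.07 to 1764 CPM in 129X1, median 344, and 2.36 to 5035 CPM in B6, median 10.9). Skeletal muscle had 1 of 6 genes higher (9.0 to 31470 CPM in 129X1, median 7606, and 52.0 to 19490 CPM in B6, median 3106). The part of neutrophils, platelets, cartilage, fibroblasts, B cells, smooth muscle, endothelium and mast cells in the results was not tested. None of these markers was at 0 in all libraries, and of 6 smooth muscle genes 1 was lower (226 to 2928 CPM in 129X1, median 1301, and 908 to 3493 CPM in B6, median 1668). In whole arteries, fewer cells of a type and less RNA per cell cannot be told apart.

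Within groups, too, the genes followed different cell markers. After the 12 group means were taken out, Alox5ap correlated with the mean of the macrophage markers at r = 0.94, Tbxas1 at 0.90, Ptgir at 0.89, Alox5 at 0.87 and Ptgs2 at 0.82 (Pearson, log2 CPM, 36 libraries). Ptgis followed the smooth muscle markers (r = 0.94), with 0.775 for those of cartilage. Ptgs1, Ptges and Alox5 followed the fibroblast markers (0.87, 0.84 and 0.84), and Ptgds the fat markers (0.81). With the T cell and thymocyte list, all genes but Ptger4 and Ptgds had negative values. They were -0.80 for Ptges, -0.77 for Ptgs1, -0.591 for Ptgis and -0.579 for Ptgir. Alox5ap had -0.542, Ptgs2 -0.535, Tbxas1 -0.514 and Alox5 -0.46. Ptges also had 0.79 with the endothelium markers. The part of each tissue in these values was not tested. The r of Ptger4 with the macrophage markers was 0.01, and its highest values were with the T cell and thymocyte list (0.55) and the B cell list (0.54). The points share dissection, library and depth, and the values describe these arteries only.

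**Figure D3:**
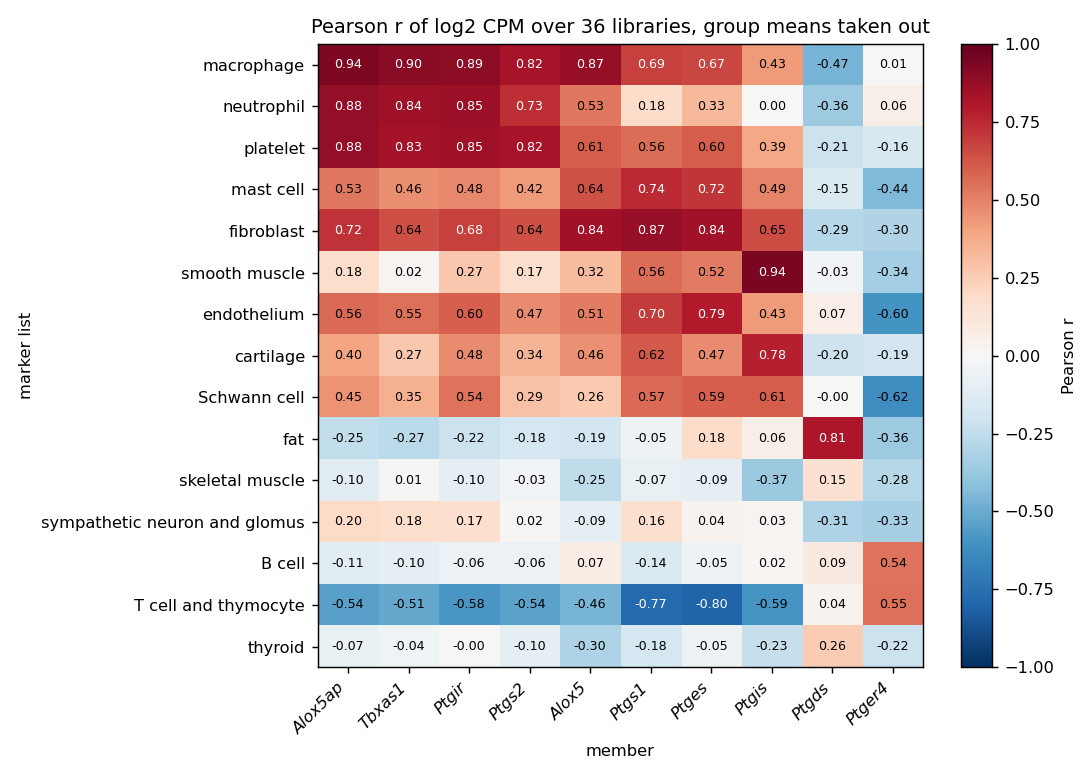
Pearson r between each gene (columns) and the mean log2 CPM of each marker list (rows) over 36 libraries after group means were taken out, on a scale from -1 (blue) to 1 (red). Alox5ap, Tbxas1, Ptgir and Ptgs2 share high values with macrophage, neutrophil and platelet lists, and Ptgis reaches 0.94 with smooth muscle.

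The genes most like each member by the same measure tell them apart further. Alox5ap was nearest to Fcer1g (r = 0.995), an Fc receptor chain of myeloid cells, with Ccl9 and Aldh3b1 at 0.988. Tbxas1 was nearest to Ptafr (0.983), the receptor for platelet activating factor, then Rab7b (0.979) and Fcgr3 (0.977). Ptgir was nearest to Litaf (0.97), Pirb (0.958) and Ftl1 (0.957). Ptgs2 was nearest to Gadd45b (0.913), Cxcl16 (0.90) and Nfkbiz (0.894), and of these Gadd45b and Nfkbiz are genes that inflammatory signals induce. Ptgis was nearest to Csrp2 (0.968), Nov (0.962) and Pls3 (0.962). Ptgs1 was nearest to Reck (0.93), Cd109 (0.929) and Timp2 (0.926), and Alox5 to Fn1 (0.918), Lima1 (0.918) and Kdelc1 (0.91). Ptges was nearest to Pyroxd2 (0.921), Morc4 (0.918) and Rrbp1 (0.907). Ptgds was nearest to Cox7a1, Gpd1 and Slc25a48, each at 0.872, and Ptger4 to Fermt3 (0.922), Bin2 (0.921) and Arhgdib (0.921). Among pairs of the 10 genes, the highest r was that of Tbxas1 and Alox5ap (0.967).

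With the mean of the macrophage markers in the fit as a covariate, 4 of the 10 genes passed (background 20.9% of all genes in either direction in that fit). Ptgs2 was still lower in 129X1, at a log2 difference of -0.70 (adjusted p = 0.0383). Alox5ap and Tbxas1 turned to higher in 129X1, at 0.69 (adjusted p = 0.00134) and 0.55 (adjusted p = 0.0167), and Ptges passed as higher at 0.45 (adjusted p = 0.036). Ptgir (0.12), Alox5 (0.05), Ptgs1 (0.02) and Ptgis (-0.08) lost their calls. With skeletal muscle, fat and Schwann cell scores as covariates instead (background 19.9%), Ptgs2 was at -1.42 (adjusted p = 0.0408), Ptger4 passed at -0.53 (adjusted p = 0.0208), and the other 6 calls were lost. With all 4 scores together, chosen after the data were seen (background 33.8%), Ptgs2 was at -0.72 and did not pass (adjusted p = 0.0671). With the 16 Rag1-rich libraries (10 CPM or more) left out, 6 129X1 and 14 B6 libraries remained. That fit compared 5 of the 6 combinations of treatment and regimen, since therapeutic Val had no 129X1 library left. Ptgs2 was at -2.06 there. Only the size is given, because some 129X1 groups were down to 1 library. A score that differs between the strains shares its variation with strain, and the 2 cannot be told apart in this design.

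**Figure D4:**
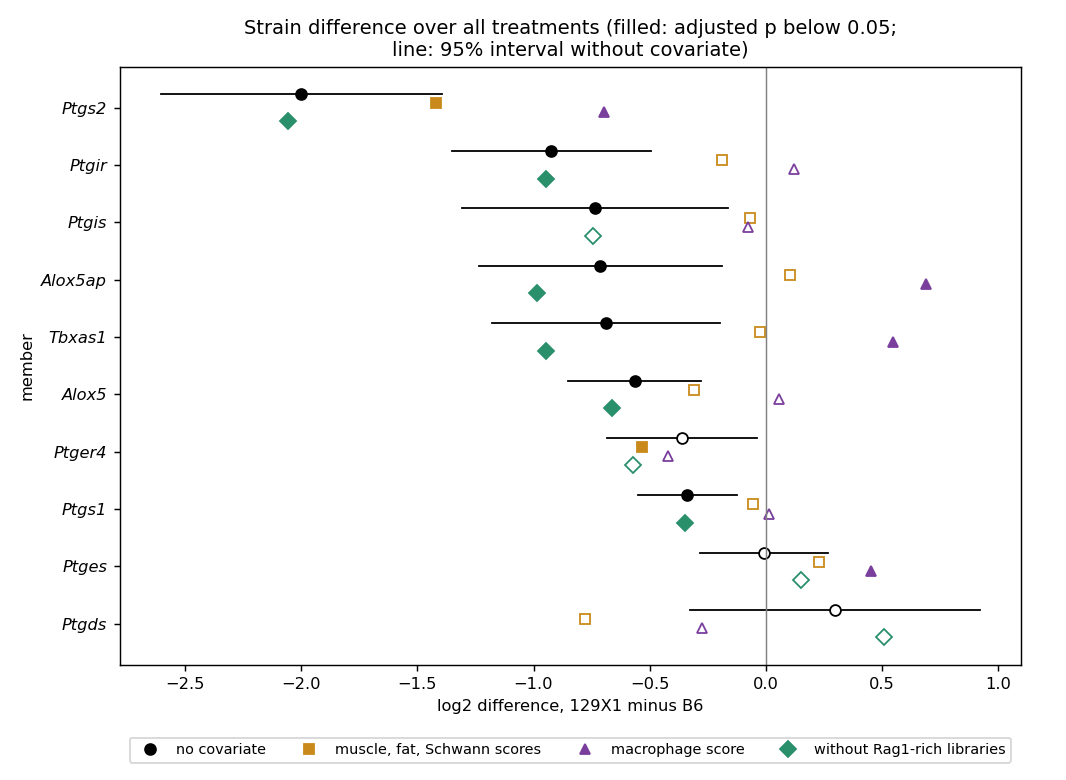
Log2 difference of each gene, 129X1 minus B6, over all treatments without a covariate (black, with its 95% interval), with 3 tissue scores, with the macrophage score, and with the Rag1-rich libraries left out; filled symbols have an adjusted p below 0.05. Ptgs2 lies left of 0 in all 4 fits, while Alox5ap and Tbxas1 cross to 0.69 and 0.55 with the macrophage score. The fit without Rag1-rich libraries compared 6 129X1 with 14 B6 libraries in 5 of the 6 combinations of treatment and regimen.

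Within single treatments, with 6 libraries per strain, fewer of the genes passed. By edgeR with all libraries, none was lower in 129X1 under Sac/val (background 3.18% lower and 3.08% higher, 6.26% in all). Under Val 2 were lower (background 9.61% lower and 11.3% higher, 20.9% in all), and under vehicle 1 was (background 6.52% lower and 7.02% higher, 13.5% in all). The Ptgs2 log2 difference was -1.52 under Sac/val (SE 0.50, adjusted p = 0.0713; by DESeq2's Wald test adjusted p = 0.0218), -2.12 under Val (SE 0.51, adjusted p = 0.00522) and -2.36 under vehicle (SE 0.52, adjusted p = 0.00283). Ptgs2 passed under Sac/val by edgeR without B6 Val therapeutic replicate 1 (-1.52, adjusted p = 0.0451), without B6 Sac/val therapeutic replicate 1 (-1.75, adjusted p = 0.0303) or without 129X1 Sac/val therapeutic replicate 3 (-1.82, adjusted p = 0.0412). The change of its strain difference with drug, both drugs against vehicle, was 0.54 (95% interval -0.70 to 1.78, adjusted p = 1.00), so the treatments were not shown to differ in it. Libraries of the strains did not overlap for Ptgs2 and Ptgir under vehicle, as held for 4.80% of all genes in the lower direction. Ptgir reached 14.1 CPM at most in 129X1 vehicle libraries, against 14.3 CPM at least in B6 vehicle libraries, and its log2 difference there was -0.94 (adjusted p = 0.0832).

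Ptger4 was the other gene to pass under Val, at a log2 difference of -0.91 (SE 0.27, adjusted p = 0.0202). It had 6.46, 6.98 and 9.15 CPM in 129X1 and 32.5, 12.7 and 12.2 CPM in B6 under prophylactic Val. Under therapeutic Val it had 16.5, 12.4 and 10.3 CPM in 129X1 and 23.8, 16.5 and 14.0 CPM in B6. The strains were apart under prophylactic Val and overlapped under therapeutic Val. The call was lost without the Rag1-rich B6 Val prophylactic replicate 1 (-0.61, adjusted p = 0.085) and without 129X1 Val therapeutic replicate 3 (-0.83, adjusted p = 0.0619). Under Sac/val and under vehicle its log2 difference was 0.18 (adjusted p = 0.724) and -0.36 (adjusted p = 0.405).

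No drug comparison passed for any of the 10 genes. Sac/val against vehicle, Val against vehicle and Sac/val against Val each had 12 libraries on either side, averaged over strain and regimen, and the first 2 share their vehicle libraries. Of all genes tested 0% passed in each of the 3 by edgeR, and 293, 453 and 491 of 18628 had an unadjusted p below 0.05. Among the 10 genes, 0 had an unadjusted p below 0.05 in any of the 3. Their log2 differences ran between -0.23 and 0.23 for Sac/val minus vehicle (median 0.01), between -0.59 and 0.03 for Val minus vehicle (median -0.12), and, for Sac/val minus Val, between -0.14 and 0.69 (median 0.13). Over all genes the medians were 0.01, 0.03 and -0.03.

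Ptgs2 had a median of 8.00 CPM under Sac/val, 7.00 CPM under Val and 8.04 CPM under vehicle in both strains together. Its log2 difference was 0.11 for Sac/val minus vehicle (95% interval -0.60 to 0.82), -0.09 for Val minus vehicle (-0.81 to 0.62) and, between the drugs, 0.20 (-0.51 to 0.92). The largest value among the 10 genes was that of Ptgds for Sac/val minus Val, 0.69 (interval -0.08 to 1.45, adjusted p = 0.908). Ptgds had 0.99 to 7.87 CPM under Sac/val and 0.92 to 4.34 CPM under Val, so its libraries overlapped.

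In 129X1 under the prophylactic regimen Ptgs2 had 2.99, 10.7 and 7.35 CPM with Sac/val, 2.94, 1.88 and 3.59 CPM with Val, and 3.55, 4.84 and 2.13 CPM with vehicle. The highest 2 of the 9 were Sac/val libraries, and the third lay among the rest. The log2 difference was 1.00 against vehicle (SE 0.71, adjusted p = 1.00) and 1.32 against Val (SE 0.71, adjusted p = 0.805). The Sac/val effect on Ptgs2 against vehicle differed between the strains by 0.84 (95% interval -0.59 to 2.27, adjusted p = 0.952). In each of the 12 comparisons of 2 treatments within a strain and regimen, none of the 10 genes passed, and the smallest unadjusted p was 0.035 for Ptger4.

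**Figure D5:**
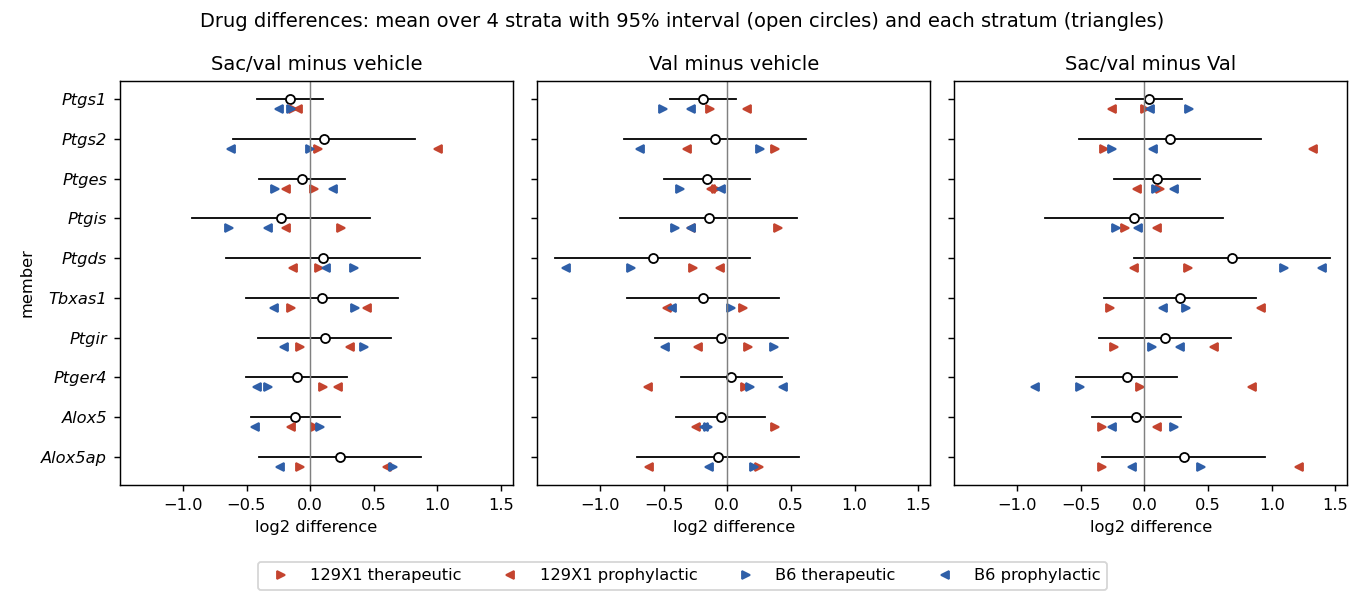
Log2 difference of each gene for the 3 drug comparisons, averaged over the 4 combinations of strain and regimen with its 95% interval (open circles, none passed) and in each combination (triangles; red 129X1, blue B6; pointing right therapeutic, left prophylactic). All 30 intervals include 0, and Ptgs2 in prophylactic 129X1 lies to the right, at 1.00 and 1.32, in the first and last panels.

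Regimen gave no call either. Of all genes tested 0% passed for therapeutic minus prophylactic by edgeR (599 with an unadjusted p below 0.05), and the 10 genes ran between -0.30 and 0.34 on the log2 scale. Ptges alone had an unadjusted p below 0.05 (log2 difference -0.30, adjusted p = 1.00), with 11.4 to 36.2 CPM in therapeutic libraries (median 25.4) and 15.9 to 42.9 CPM in prophylactic libraries (median 28.8). The strain difference of Ptgs2 changed between the regimens by 0.16 (95% interval -1.001 to 1.33, adjusted p = 1.00).

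Of 35 other genes of the pathway, 32 were tested, and over all treatments 5 were lower and 6 higher in 129X1, with a median log2 difference of -0.09. These shares are near the background of 17.5% lower and 16.3% higher and are no result about the list, so the genes are given for their values. Slco2a1, the prostaglandin transporter that takes prostaglandins up for breakdown, had 25.8 to 47.0 CPM in 129X1 (median 34.9) and 44.1 to 133 CPM in B6 (median 66.8). Its ranges touched only at their ends, and its log2 difference was -0.91 (SE 0.10, adjusted p = 4.98e-08). It was also the lone gene of the list to pass under Sac/val alone (-0.59, adjusted p = 0.0333). Hpgds, the hematopoietic prostaglandin D synthase, was lower (-0.88, adjusted p = 0.000177), as was Lta4h, the enzyme that makes leukotriene B4 (-0.38, adjusted p = 0.00758). Ptgfrn, a negative regulator of the prostaglandin F2 receptor, was lower by a log2 difference of -0.54 (adjusted p = 0.0234).

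The genes that were higher in 129X1 included Ptger3, a prostaglandin E2 receptor also known as EP3. It had 39.6 to 115 CPM in 129X1 (median 58.6) and 16.7 to 87.7 CPM in B6 (median 33.7), with a log2 difference of 0.74 (adjusted p = 0.00265). Ptges2, a further prostaglandin E synthase, was higher by 0.68 (adjusted p = 0.000205). Alox12, a 12-lipoxygenase, was higher by 0.77 (adjusted p = 0.000528) and Ptgr2, which reduces prostaglandin metabolites, by 0.54 (adjusted p = 0.00304). Fat markers moved with them, with 5 of 7 higher in 129X1 (summed level 5849 to 16840 CPM, median 10210, against 1879 to 12230 CPM, median 5474, in B6). Values of these genes with the fat score in the fit are not given here. None of the 32 passed for a drug or for regimen.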

How the data were processed

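The submitters' processing notes name Trimmomatic 0.36, STAR 2.5.2b, Subread 1.5.0p3 and featureCounts, and the build GRCm38. The library kit marks strand, per the labels' protocols. The strand setting and annotation release of the counting are not given in the sources used here. The authors deposited a table of whole-number counts for 49568 symbols in 36 libraries. From it, edgeR 4.0.16 (R 4.3.3) kept genes by filterByExpr (minimum count 10), scaled libraries by TMM (factors 0.82 to 1.13) and fitted 12 group means by quasi-likelihood, with Benjamini-Hochberg adjustment over 18628 genes per comparison and a threshold of 0.05. Averages over strata weight each group equally. CPM use the TMM sizes, and log2 CPM a prior count of 2. Replicate numbers follow sample order. The p-values measure the spread between libraries of different mice, which includes differences in the neighbouring tissue taken with each artery. Exon lengths and positions come from GENCODE M21 (GRCm38), with all exons of a gene merged for its length. Cell type scores are mean log2 CPM of the marker lists. The script was tested on simulated data. The text names the 10 genes, up to 8 passing pathway genes per comparison by smallest p, and the 3 genes most like each member. Members and lists were chosen with earlier results of these data known. Alternatives were DESeq2 1.42.0, its size factors in edgeR, no filter, only the groups compared, marker scores as covariates, leaving out libraries with 10 CPM or more of Rag1, and each library left out.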

Additional observations from a re-analysis of the deposited data

Results flagged for a closer look

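Libraries separated in opposite directions in the 2 strains for Ptger4 when prophylactic Sac/val was set against prophylactic Val. In 129X1 it had 12.8, 16.0 and 11.7 CPM with Sac/val and 6.46, 6.98 and 9.15 CPM with Val. In B6 it had 9.77, 9.87 and 12.1 CPM with Sac/val and 32.5, 12.7 and 12.2 CPM with Val. Every Sac/val library lay above every Val library in 129X1 and below every Val library in B6. The pattern was picked out by a search for effects that differ between groups. With so few libraries per group, some separation of this kind can arise by chance. The share of all genes with such opposite separation is not given here, so how unusual the pattern is was not tested. The log2 difference was 0.84 in 129X1 (adjusted p = 0.805) and -0.86 in B6 (adjusted p = 0.387), by edgeR. Over both regimens the effect differed between 129X1 and B6 by 1.085 (95% interval 0.30 to 1.87, adjusted p = 0.179), which did not pass, and within the prophylactic regimen alone the difference between strains was not tested. The highest of these libraries, B6 Val prophylactic replicate 1 at 32.5 CPM, held 1591 CPM of Rag1.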

How the results depend on the processing

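DESeq2's size factors in edgeR kept the direction and the side of the threshold for all 31 gene values examined. Counts of the 10 genes that passed moved as follows. Each has the share of all genes called in the same fit, except for the fits that left out 1 library. By DESeq2's Wald test 3 passed for strain under vehicle (17.8%) and 1 under Sac/val (9.76%), with Ptgs2 at -1.52 (adjusted p = 0.0218). With only the groups compared in the fit, 3 passed under vehicle (13.8%) and 1 under Val (12%). With skeletal muscle, fat and Schwann cell scores 2 passed over all treatments (19.9%), 0 under vehicle (5.5%) and 1 under Val (16.5%). With the macrophage score 4 passed over all treatments (20.9%) and 4 under Val (29.5%). Without the libraries of 10 CPM or more of Rag1, 0 passed under vehicle (3.81%) and 0 under Val (4.18%). There the Ptgs2 difference was -2.55 under vehicle, with 2 129X1 libraries and 4 of B6, and -2.97 under Val, which compared the prophylactic regimen alone with 2 libraries per strain. With all 4 scores, chosen after the data were seen, 1 passed under Sac/val (16.9%). On leaving out each library in turn, the counts ran between 5 and 8 over all treatments and 1 and 4 under vehicle. Under Val they ran between 1 and 5, and under Sac/val between 0 and 1. The shares of all genes in those fits are not given here, so these ranges are no result about the 10 genes.

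Directions turned mostly with the marker scores, and the cause was not tested. With the 3 tissue scores the strain differences over all treatments turned to -0.78 for Ptgds, 0.23 for Ptges and 0.10 for Alox5ap. Ptger4 under Sac/val turned to -0.42 and Ptgs2 for Sac/val minus vehicle to -0.0013. With the macrophage score they turned to -0.28 for Ptgds, 0.45 for Ptges, 0.015 for Ptgs1, 0.69 for Alox5ap, 0.55 for Tbxas1, 0.0544 for Alox5 and 0.12 for Ptgir (0.0623 under vehicle). Ptgs2 turned to -0.0828 for Sac/val minus vehicle and, between the drugs, -0.0572. With all 4 scores they turned to -0.90 for Ptgds, 0.42 for Ptges, 0.0648 for Ptgs1, 0.0354 for Ptgis, 0.81 for Alox5ap, 0.63 for Tbxas1 and 0.28 for Ptgir (0.22 under vehicle). Ptger4 under Sac/val turned to -0.39, and Ptgs2 to -0.0482 for Sac/val minus vehicle, 0.0143 for Val minus vehicle and, between the drugs, -0.0625. Without the Rag1-rich libraries, Ptges turned to 0.15 over all treatments and Ptger4 to -0.14 under Sac/val. On leaving out single libraries, Ptges ran between -0.0791 and 0.0475 over all treatments. Ptgs2 ran between -0.0531 and 0.236 for Sac/val minus vehicle and between -0.195 and 0.0313 for Val minus vehicle.

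The Ptgis call was lost without 1 of 18 libraries: B6 vehicle prophylactic replicates 1 and 3, B6 Val prophylactic 2 and 3, B6 Sac/val prophylactic 1, B6 vehicle therapeutic 1, B6 Val therapeutic 3, B6 Sac/val therapeutic 2, 129X1 vehicle prophylactic 3, 129X1 Val prophylactic 2 and 3, 129X1 Sac/val prophylactic 1 and 2, 129X1 vehicle therapeutic 1 and 3, 129X1 Val therapeutic 1, and 129X1 Sac/val therapeutic 2 and 3 (log2 differences from -0.73 to -0.59). The Alox5ap call was lost without 1 of 10: B6 vehicle prophylactic 3, B6 Val prophylactic 2 and 3, B6 vehicle therapeutic 1, B6 Val therapeutic 2, B6 Sac/val therapeutic 2, 129X1 vehicle prophylactic 1, 129X1 Sac/val prophylactic 1, 129X1 vehicle therapeutic 3 and 129X1 Val therapeutic 1 (-0.68 to -0.62).

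The spread within groups limits the drug comparisons: Ptgs2 spanned 5.09 to 33.7 CPM within B6, and the 95% interval of Ptgds for Val minus vehicle ran between -1.35 and 0.18. No paired analysis was possible because each mouse gave 1 library and replicate numbers only follow sample order.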
